A study of Mus musculus with 8 samples.

Results

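The 50 genes described here encode the machinery that licenses replication origins and copies DNA. They were listed by name from 15 sub-complexes of that machinery, such as the MCM helicase, the origin recognition complex and the replicative polymerases. No expression value set membership, but the list was chosen with earlier results of these data known. Of the 50, 49 had an array row that named that gene alone, out of 22180 genes with such a row, and the remaining member, Rfc4, was measured only on a row shared with Eif4a2. The expression of these genes was compared between mammary tumors with and without deletion of Mmp14, the gene of the membrane-anchored matrix metalloproteinase MT1-MMP. RNA came from 8 whole tumors, 4 per group, each labelled a biological replicate, and was measured on Affymetrix mouse gene arrays. All 8 mice carried MMTV-PyMT, an oncogene transgene driven in mammary epithelium, and floxed Mmp14 alleles, Mmp14(f/f), on a congenic FVB/NJ background, and were 3 to 4 months old. The 4 conditional knockout tumors (cKO) came from mice that also carried MMTV-Cre, which drives the recombinase mainly in mammary epithelium. The 4 control tumors, called wild type by the submitters (WT), came from littermates without MMTV-Cre, so that presence of the recombinase and loss of Mmp14 cannot be told apart. Cells without MMTV-Cre activity keep their Mmp14 alleles, and which cells of the tumor these are was not measured.

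A cell prepares its origins before S phase. The origin recognition complex marks the DNA, Cdc6 and Cdt1 join it, and together they load the ring-shaped helicase built of Mcm2 to Mcm7, while geminin holds Cdt1 back once S phase has begun. Kinases, among them Cdc7 with its partner Dbf4, then turn the loaded helicase on by bringing in Cdc45 and the GINS complex. Polymerase alpha with primase starts each new strand, polymerases delta and epsilon extend it on the sliding clamp PCNA, and many of these genes are known targets of E2F transcription factors, so their RNA marks tissue with dividing cells. In whole-tumor RNA, fewer cells of a type and less RNA per cell cannot be told apart, and the same holds for more dividing cells and more RNA in each of them.

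The values are log2 signals, and each difference is cKO minus WT on that scale, with its standard error (SE) from limma. All 23521 rows with 1 gene symbol entered the Benjamini-Hochberg adjustment of p-values. Array medians ranged from 3.64 to 3.71. Mmp14 checked the labels: it stood at 8.86, 9.12, 9.31 and 9.17 in WT 1 to WT 4 and at 7.98, 7.74, 7.44 and 7.72 in cKO 1 to cKO 4, and fell by 1.40 (SE 0.13, adjusted p = 0.0444) to 38.0% of the WT signal. That call was lost when any 1 of 6 of the 8 tumors was left out, although the difference stayed between −1.48 and −1.30. The luminal keratin gene Krt8 lay between 10.07 and 10.74 in the WT tumors and between 10.06 and 10.66 in the cKO tumors. The epithelial adhesion gene Epcam lay between 10.51 and 10.64 in WT and between 10.45 and 10.60 in cKO tumors. Both were picked after their values were seen, and all 11 measured luminal markers had a lower mean in cKO tumors (median −0.24). Over all rows, 2 (0.0085%) passed an adjusted p of 0.05, and Mmp14 was one of them.

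Most of the replication genes had a higher signal in the Mmp14-deleted tumors. Of the 49 measured, 46 were higher, where 56.5% of all rows and 51.6% of rows with a mean of at least 5 were, and 3 were lower (Orc3, Orc4 and Pold3). The median difference was 0.48, a fold of 1.39, against 0.023 over all rows. By at least 0.5, 22 members were higher, and the share of all rows at that size was not counted. Members with a higher signal at an unadjusted p below 0.05 numbered 39 (79.6%), where 5.54% of all rows were, and no member was lower at that level, where 4.14% of all rows were. In 34 members (69.4%) every cKO tumor lay above every WT tumor, against 3.68% of all rows, and in none did every cKO tumor lie below, against 1.73%. None of the 49 passed an adjusted p of 0.05, so no single one of these genes can be called changed; the smallest adjusted p was 0.0795, for Mcm5, and 12 members were among the 100 rows with the smallest p. Among rows with a mean of at least 5, a filter that 47 of the members pass, 8.11% were higher at an unadjusted p below 0.05 and 4.96% did not overlap upwards.

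**Figure D1:**
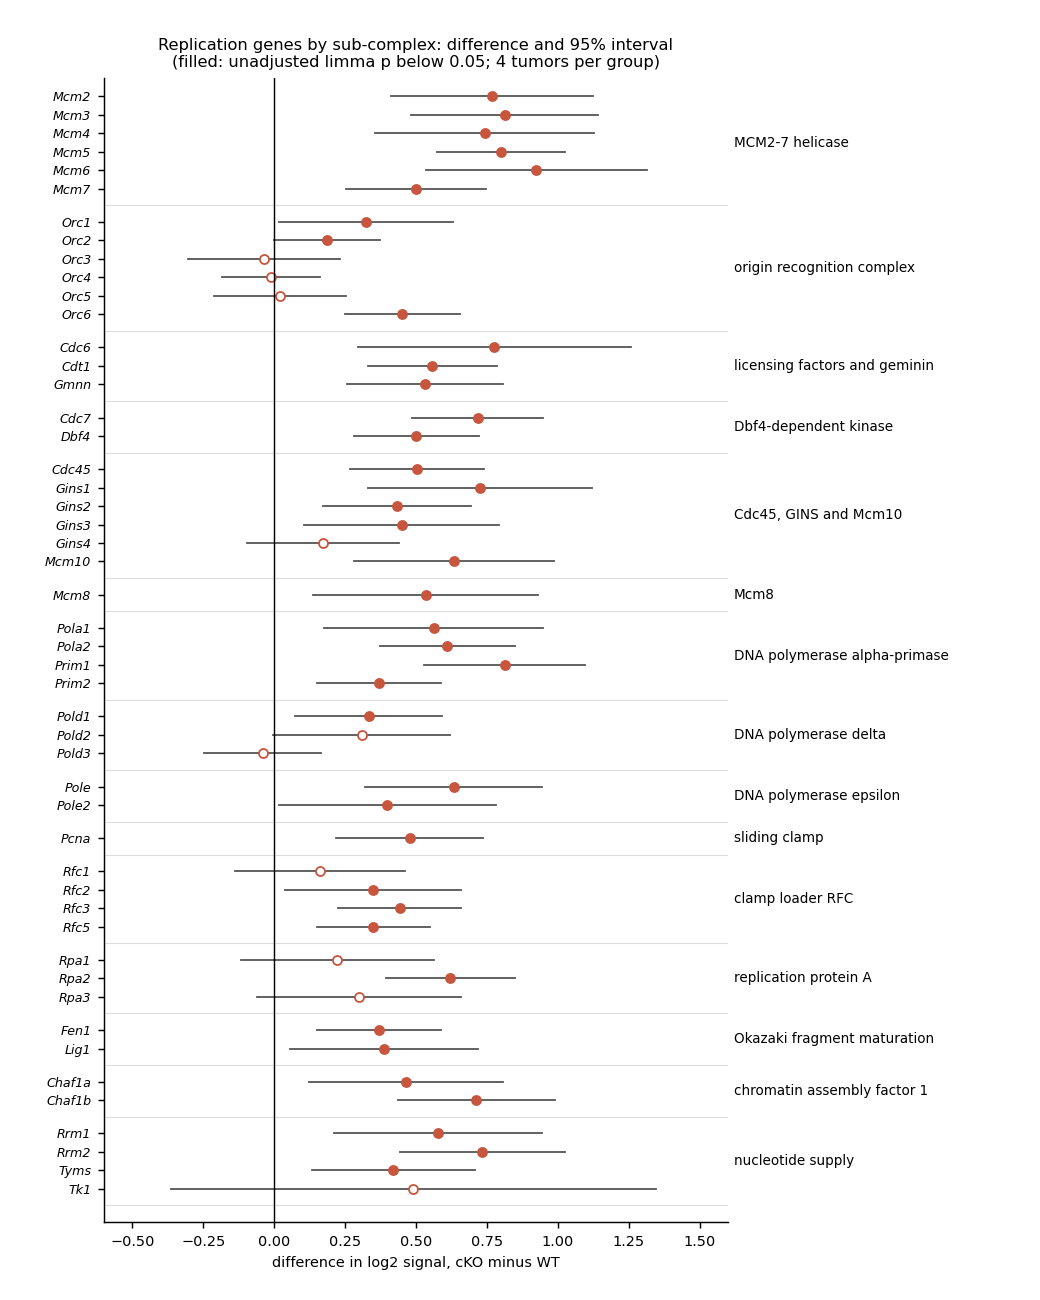
Difference in log2 signal, cKO minus WT, of each of the 49 measured replication genes, grouped by sub-complex; points are limma estimates and bars 95% confidence intervals, filled points have an unadjusted p below 0.05, with n = 4 tumors per group. Of the points, 46 lie above 0, the 6 helicase subunits between 0.50 and 0.92, while several subunits of the origin recognition complex sit at about 0.

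Markers of other cell types differed between the groups too. For scale, 4.14% of all rows were lower and 5.54% higher at an unadjusted p below 0.05. All 12 of 12 fibroblast markers were lower in the cKO tumors (median −0.81, 5 at an unadjusted p below 0.05), and the mean level of the list was 6.86 to 7.45 in WT and 5.31 to 7.45 in cKO tumors. Of 12 macrophage markers, 9 were higher (median 0.39, 7 at an unadjusted p below 0.05), with list means of 6.35 to 6.79 and of 6.62 to 6.88. The other 3, Mertk (−0.72), Cd14 (−0.56) and Mrc1 (−0.40), were lower, none at that level. All 11 measured luminal epithelial markers were lower (median −0.24, 3 at an unadjusted p below 0.05), with list means of 8.88 to 9.19 and of 8.51 to 8.85. The 9 endothelial markers were all lower (median −0.28) and 6 of 8 basal and myoepithelial markers were lower (median −0.17), while T cell markers had a median of 0.14, B cell markers one of −0.00050 and neutrophil markers one of 0.0017. The markers with the smallest p were Col1a1 (−1.36) and Postn (−1.26) for fibroblasts, Ms4a7 (1.01) and Adgre1 (0.68) for macrophages, and Muc1 (−0.69) and Krt19 (−1.15) for luminal cells, none past the adjusted threshold. The part of cell composition in the replication gene differences was not tested.

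All 6 subunits of the MCM helicase, the ring that unwinds DNA ahead of the fork, were higher in every cKO tumor than in any WT tumor, by a median of 0.78. Mcm6 had signals of 7.02, 7.43, 7.25 and 7.05 in WT 1 to WT 4 and of 7.82, 7.84, 8.27 and 8.52 in cKO 1 to cKO 4, a difference of 0.92 (SE 0.17) and a fold of 1.90 with a 95% confidence interval of 1.45 to 2.48 (adjusted p = 0.142). Mcm3 read 6.76, 7.18, 7.02 and 6.74 in the WT tumors and 7.53, 7.53, 7.86 and 8.01 in the cKO tumors, a difference of 0.81 (SE 0.15, adjusted p = 0.142). In both genes the ranges were apart, WT 1 and WT 4 were lowest, and cKO 3 and cKO 4 were highest. Mcm5 read 7.09, 7.33, 7.29 and 7.08 in WT and 8.04, 7.89, 7.90 and 8.17 in cKO tumors, and its difference of 0.80 (SE 0.10, fold 1.74, 95% confidence interval 1.49 to 2.04) had the smallest p of all members. Leaving out any 1 tumor gave Mcm5 differences of 0.74 to 0.85 and adjusted p-values of 0.13 to 0.406. Mcm2 read 6.52, 6.72, 6.61 and 6.38 in WT and 7.02, 7.09, 7.48 and 7.70 in cKO tumors, a difference of 0.77 (SE 0.16, adjusted p = 0.19). Mcm4 read 7.36, 7.64, 7.51 and 7.32 and 7.95, 7.85, 8.39 and 8.61, a difference of 0.74 (SE 0.17, adjusted p = 0.212). In these genes the spread among cKO tumors was wider than among WT tumors, with cKO 3 and cKO 4 above cKO 1 and cKO 2. Mcm7, whose gene hosts a microRNA cluster in an intron, read 6.96, 7.21, 7.23 and 7.12 and 7.45, 7.63, 7.56 and 7.87 and had the smallest difference of the 6, 0.50 (SE 0.11, adjusted p = 0.2). Rows that the annotation gives to Mcm7 together with Mir25 or Mir93, whose hairpins lie in that cluster, differed by 0.058 and −0.075.

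**Figure D2:**
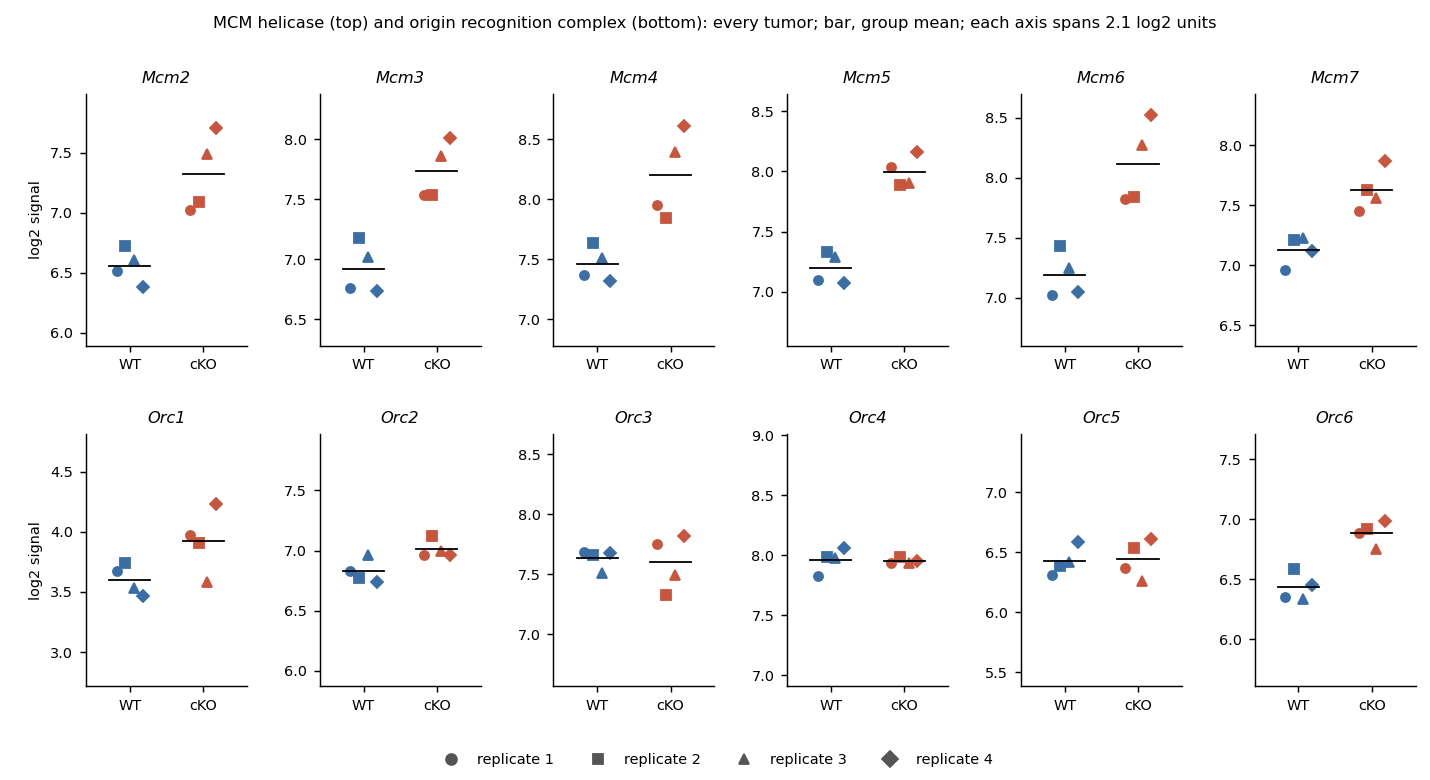
Log2 signal of the helicase subunits Mcm2 to Mcm7 and of the origin recognition subunits Orc1 to Orc6 in each of the 8 tumors; each point is a tumor, its shape the replicate number, and lines are group means with n = 4 per group. The 2 groups are apart in all 6 helicase subunits, whereas Orc1, Orc3, Orc4 and Orc5 overlap.

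The promoter letters of these genes are shown because helicase genes are known targets of E2F factors. The windows come from RefSeq on mouse build GRCm38.p6 and are printed 5′ to 3′ on the gene's strand. Capitals mark matches to any of the forms of the E2F letters, TTCCCGC being the first form, TTCGCGC the second, TTGCCGC the third and TTGGCGC the fourth, on either strand, where matches may overlap. The stretch of Mcm5 at chr8:75109329-75109438, plus strand, runs from position −180 to −71 relative to the annotated start and holds 3 matches. That of Mcm6 at chr1:128359726-128359825, minus strand, runs from −120 to −21 and holds 4.
Mcm5: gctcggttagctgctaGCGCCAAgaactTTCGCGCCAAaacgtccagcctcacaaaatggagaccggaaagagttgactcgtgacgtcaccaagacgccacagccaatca
Mcm6: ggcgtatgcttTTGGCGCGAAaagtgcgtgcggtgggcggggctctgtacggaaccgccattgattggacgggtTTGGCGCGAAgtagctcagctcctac
In both, a capital run longer than 7 letters is a pair of overlapping matches on opposite strands. The 4 matches of Mcm6 form 2 such runs, and Mcm5 has 1 single match and 1 such run. A match is a description of letters, not evidence of binding in these tumors.

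The origin recognition complex, which marks origins, had a median difference of 0.10, and 3 of its 6 subunits were higher at an unadjusted p below 0.05, 2 of them without overlap. Orc6, the subunit least tightly held in the complex, read 6.35, 6.58, 6.34 and 6.45 in WT and 6.88, 6.92, 6.75 and 6.99 in cKO tumors, with no overlap and a difference of 0.45 (SE 0.090, adjusted p = 0.175). Orc1, the subunit whose amount is known to vary through the cell cycle, differed by 0.32 (SE 0.14), with overlapping groups. Its row was dim, with means of 3.60 in WT and 3.93 in cKO tumors, near the array medians. Orc2 differed by 0.19 (SE 0.082), and its lowest cKO tumor exceeded its highest WT tumor by only 0.0016. Orc4 had the largest p, with 7.83, 7.99, 7.98 and 8.06 in WT and 7.94, 7.99, 7.93 and 7.95 in cKO tumors, a difference of −0.012 with a 95% confidence interval of −0.19 to 0.16. That interval lies below the differences of all 6 helicase subunits, and the difference between genes was not tested. Orc3 and Orc5 differed by −0.037 (SE 0.12) and 0.020 (SE 0.10). In windows from 250 bases before to 50 after the start, Orc1, Orc3 and Orc4 held E2F letters. Those of Orc2, Orc5 and Orc6 held none, and a relation of matches to the signal was not tested. Orc1 and Orc5 are shown as an example of each, and both stretches run from −100 to −1. That of Orc1 lies at chr4:108579354-108579453 on the plus strand and holds 1 match, and that of Orc5 lies at chr5:22550339-22550438 on the minus strand and holds none.
Orc1: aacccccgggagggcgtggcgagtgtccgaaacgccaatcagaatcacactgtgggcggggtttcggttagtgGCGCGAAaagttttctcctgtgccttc
Orc5: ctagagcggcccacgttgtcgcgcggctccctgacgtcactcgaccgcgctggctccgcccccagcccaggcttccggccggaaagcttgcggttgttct
The lack of a match says only that these letters are not in this stretch.

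The licensing factors were higher in every cKO tumor than in any WT tumor, and so was their inhibitor. Cdt1, which carries the helicase to origins, read 6.45, 6.57, 6.57 and 6.38 in WT and 6.83, 7.06, 7.09 and 7.21 in cKO tumors, a difference of 0.56 (SE 0.10, adjusted p = 0.142). Cdc6, the ATPase that closes the loading complex, read 5.69, 6.09, 5.77 and 5.0 and 6.28, 6.22, 6.64 and 6.50, a difference of 0.78 (SE 0.21, adjusted p = 0.308). WT 4 stood lowest for Cdc6 and widened its spread, so that its p was the largest of the 3 although its difference was the largest. Gmnn, which encodes geminin, differed by 0.53 (SE 0.12, adjusted p = 0.212). The promoter stretch of Cdc6, from −180 to −81 at chr11:98907971-98908070 on the plus strand, holds 1 match to the E2F letters.
Cdc6: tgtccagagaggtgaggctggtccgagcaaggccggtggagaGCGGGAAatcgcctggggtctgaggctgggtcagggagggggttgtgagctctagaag

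Both parts of the Dbf4-dependent kinase, which phosphorylates the loaded helicase, were higher without overlap. The catalytic subunit Cdc7 read 5.63, 5.82, 5.79 and 5.90 in WT and 6.51, 6.36, 6.42 and 6.72 in cKO tumors, a difference of 0.72 (SE 0.10, fold 1.64, 95% confidence interval 1.40 to 1.93, adjusted p = 0.142). Its activator Dbf4 read 6.45, 6.53, 6.64 and 6.71 and 7.0, 7.14, 6.95 and 7.25, a difference of 0.50 (SE 0.098, adjusted p = 0.164). For Cdc7 the gap between the groups was wider than the spread within the WT group.

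The factors that turn the loaded ring into an active helicase were also higher, with a median of 0.48 over Cdc45, the 4 GINS subunits and Mcm10. Cdc45 read 5.02, 5.22, 5.44 and 5.11 in WT and 5.70, 5.63, 5.64 and 5.83 in cKO tumors, a difference of 0.50 (SE 0.10, adjusted p = 0.19), with no overlap although WT 3 lay close to the cKO range. Gins1 differed by 0.73 (SE 0.17), Gins2 by 0.43 (SE 0.12) and Gins3 by 0.45 (SE 0.15). Gins4 read 7.82, 8.04, 7.55 and 7.80 in WT and 8.16, 7.84, 7.88 and 8.01 in cKO tumors, with overlapping groups and a difference of 0.17 whose 95% confidence interval ran from −0.10 to 0.44. It was 0.089 without WT 3 and 0.11 without cKO 1. The 4 GINS proteins form 1 complex in equal parts, but the difference between their array differences was not tested. Mcm10, a scaffold of the starting fork, differed by 0.63 (SE 0.16). Mcm8, a relative of the helicase subunits with a role in recombination, read 4.82, 5.07, 4.95 and 4.98 and 5.61, 5.10, 5.28 and 5.98, a difference of 0.53 (SE 0.18, adjusted p = 0.394). Its cKO tumors were widely spread, cKO 4 being highest, and cKO 2 was only just above WT 2.

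Polymerase alpha-primase, which lays down the primers, was higher in all 4 subunits without overlap (median 0.59), led by the primase catalytic subunit Prim1 with 6.98, 7.40, 7.19 and 6.90 in WT and 8.04, 7.80, 7.81 and 8.06 in cKO tumors. Prim1 differed by 0.81 (SE 0.13, fold 1.76, 95% confidence interval 1.44 to 2.14, adjusted p = 0.142). Its promoter stretch from −100 to −1, at chr10:128015115-128015214 on the plus strand, holds 1 match to the E2F letters.
Prim1: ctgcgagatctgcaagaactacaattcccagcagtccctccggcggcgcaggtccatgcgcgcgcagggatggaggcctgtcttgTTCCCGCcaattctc
The polymerase subunit Pola1 had the largest p of the 4, with 6.23, 6.35, 6.12 and 5.74 in WT and 6.45, 6.48, 6.68 and 7.07 in cKO tumors and a difference of 0.56 (SE 0.17, adjusted p = 0.352). WT 4 and cKO 4 were the extremes of Pola1. Pola2 and Prim2 differed by 0.61 (SE 0.11) and 0.37 (SE 0.097).

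Polymerase delta, the main lagging-strand enzyme, was the only sub-complex in which no member separated the groups. Its catalytic subunit Pold1 read 5.40, 5.78, 5.37 and 5.34 in WT and 5.80, 5.71, 5.95 and 5.77 in cKO tumors, a difference of 0.33 (SE 0.11, adjusted p = 0.417), where WT 2 lay inside the cKO range and the other WT tumors below it. Pold3, an accessory subunit, read 8.09, 7.91, 7.89 and 7.89 and 7.99, 7.93, 7.72 and 7.97, a difference of −0.040 with a 95% confidence interval of −0.25 to 0.17. Pold2 differed by 0.31 (SE 0.14), and by 0.20 without cKO 1. Of polymerase epsilon, the leading-strand enzyme, the catalytic subunit Pole read 5.14, 5.15, 5.18 and 5.32 in WT and 5.61, 5.62, 5.88 and 6.22 in cKO tumors, a difference of 0.63 (SE 0.14, adjusted p = 0.2), with no overlap. A dimmer row of Pole differed by −0.040, and the mean of both rows brings the median of the epsilon pair from 0.52 to 0.35. Pole2 read 6.51, 7.21, 6.96 and 6.45 and 7.30, 7.22, 7.0 and 7.20, with WT 2 among the cKO tumors and a difference of 0.40 (SE 0.17, adjusted p = 0.499).

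Pcna, the sliding clamp that tethers polymerases to DNA, read 9.60, 9.89, 9.76 and 9.39 in WT and 10.18, 10.07, 10.05 and 10.25 in cKO tumors. The groups did not overlap, and the difference was 0.48 (SE 0.12, fold 1.39, adjusted p = 0.238). The clamp loader RFC had a median difference of 0.35 over its 4 measured members. Rfc3 led it, with 5.47, 5.83, 5.77 and 5.66 in WT and 6.07, 6.21, 6.07 and 6.16 in cKO tumors and a difference of 0.44 (SE 0.096, adjusted p = 0.2). Rfc1, the large subunit, read 8.02, 7.86, 7.90 and 7.75 and 7.84, 7.82, 8.17 and 8.35, with overlapping groups and a difference of 0.16 (SE 0.13) that became 0.061 without cKO 4. Rfc2 and Rfc5 differed by 0.35 (SE 0.14) and 0.35 (SE 0.088). The row that Rfc4 shares with Eif4a2, an RNA helicase of translation, was 7.36 ± 0.33 in WT and 7.92 ± 0.24 in cKO tumors (SD, n = 4 each), and which of the 2 genes it measured is not known.

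Replication protein A coats single-stranded DNA as a trimer, and all 3 subunits had a higher mean in the cKO tumors, 1 of them at an unadjusted p below 0.05. Rpa2, the middle subunit, read 6.10, 6.04, 6.16 and 5.88 in WT and 6.59, 6.59, 6.59 and 6.88 in cKO tumors, with no overlap and a difference of 0.62 (SE 0.10, fold 1.54, adjusted p = 0.142). Rpa1, the large DNA-binding subunit, read 7.37, 7.97, 7.51 and 7.29 and 7.86, 7.61, 7.66 and 7.89, with WT 2 the highest of all 8 tumors and a difference of 0.22 (SE 0.15), or 0.37 without WT 2 and 0.14 without WT 4. Rpa3 differed by 0.30 (SE 0.16), or 0.20 without WT 1. Dimmer rows of Rpa1 and Rpa3 differed by 0.0063 and 0.12. The promoter stretch of Rpa2 from −100 to −1, at chr4:132768260-132768359 on the plus strand, holds 1 match to the E2F letters.
Rpa2: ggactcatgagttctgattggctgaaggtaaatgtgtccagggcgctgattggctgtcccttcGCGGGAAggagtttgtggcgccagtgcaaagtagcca

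The enzymes that finish lagging-strand fragments were both higher without overlap. Fen1, the nuclease that trims the flaps, read 5.53, 5.49, 5.64 and 5.42 in WT and 5.75, 5.79, 6.08 and 5.94 in cKO tumors, a difference of 0.37 (SE 0.097, adjusted p = 0.281), while a dimmer row of Fen1 differed by −0.044. Lig1, the ligase that seals the nicks, read 6.79, 6.65, 6.73 and 6.52 and 7.10, 6.80, 6.87 and 7.47, a difference of 0.39 (SE 0.15, adjusted p = 0.458) that rested partly on cKO 4, being 0.25 without it. Chaf1a and Chaf1b, of chromatin assembly factor 1, which deposits new histones behind the fork, were also higher without overlap. Chaf1b read 7.01, 7.22, 7.52 and 7.23 in WT and 7.90, 7.80, 8.15 and 7.97 in cKO tumors, a difference of 0.71 (SE 0.12, adjusted p = 0.142). Chaf1a, which read 5.64, 5.69, 5.60 and 5.12 and 5.84, 5.91, 5.88 and 6.28, differed by 0.46 (SE 0.15, adjusted p = 0.385), with WT 4 well below and cKO 4 well above the others of their groups.

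Among the enzymes that supply nucleotides, both subunits of ribonucleotide reductase and thymidylate synthase were higher without overlap, and thymidine kinase was not. Rrm2, the small subunit of the reductase, whose amount follows S phase, read 5.94, 6.29, 6.27 and 6.29 in WT and 6.94, 6.77, 6.79 and 7.23 in cKO tumors, a difference of 0.73 (SE 0.13, adjusted p = 0.142). A dimmer row of Rrm2 differed by 0.085. Rrm1, the large subunit, differed by 0.58 (SE 0.16), with only 0.00012 between its highest WT and lowest cKO tumor, and Tyms, which makes thymidylate, by 0.42 (SE 0.13). Tk1, the salvage kinase of thymidine, read 6.48, 6.45, 6.44 and 7.26 in WT and 7.12, 8.29, 6.83 and 6.36 in cKO tumors. Its WT range lay inside its cKO range, with cKO 2 highest and cKO 4 lowest of all 8, an order seen in no other member, and its difference of 0.49 had a 95% confidence interval of −0.36 to 1.35. Without cKO 2 it was 0.11, and without cKO 4 it was 0.76. The promoter stretch of Rrm1 from −100 to −1, at chr7:102441595-102441694 on the plus strand, holds 1 match to the E2F letters.
Rrm1: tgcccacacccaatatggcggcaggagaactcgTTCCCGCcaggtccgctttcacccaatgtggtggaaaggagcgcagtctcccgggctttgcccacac

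The groups also separated when each tumor was given 1 value. The mean of all 49, each centred on its own average over the 8 tumors, was −0.32, −0.11, −0.20 and −0.32 in WT 1 to WT 4 and 0.22, 0.15, 0.17 and 0.40 in cKO 1 to cKO 4. The lowest cKO tumor thus lay above the highest WT tumor. Tumor cKO 4 was the highest of all 8 in 31 members, and it also had the highest fibroblast marker level of its group. Leaving it out gave a median difference of 0.43 over the members, and leaving out any other single tumor gave 0.44 to 0.52. WT 2 was the highest WT tumor in 29 members, and WT 4 or WT 1 the lowest in 25 and 18.

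**Figure D3:**
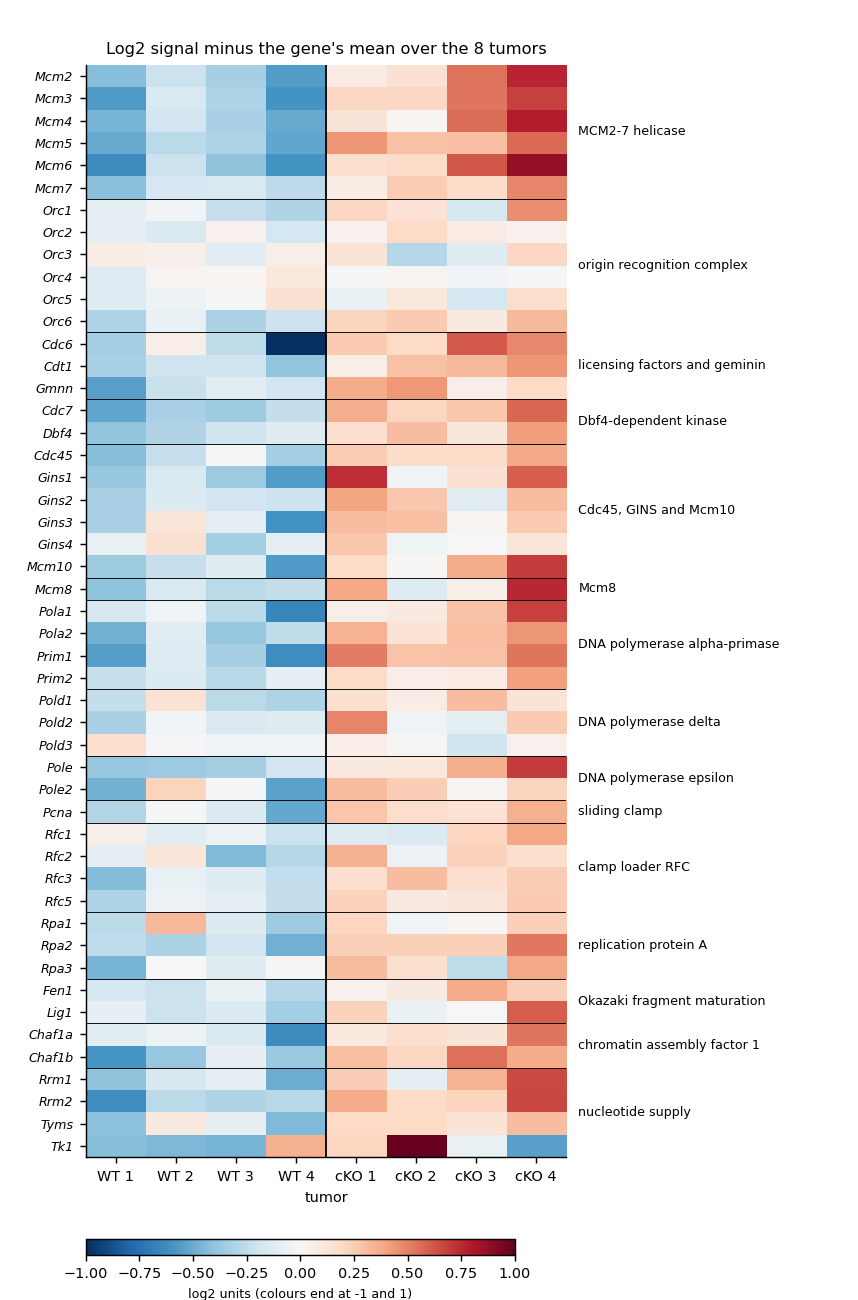
Log2 signal of the 49 members in each of the 8 tumors, each gene centred on its own mean, with genes grouped by sub-complex and the colour bar in log2 units. The cKO columns are mostly above 0, cKO 4 most often the highest of the 8, while Tk1 is highest in cKO 2.

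Array numbers 1 to 4 held WT 1, WT 2, cKO 1 and cKO 2 and numbers 5 to 8 the rest, per the labels, so the comparison can be made within each set of 4 arrays. The median difference over the members was 0.40 in arrays 1 to 4 and 0.51 in arrays 5 to 8, and 43 of the 49 were higher in both. The share of all rows higher in both was not counted, so this count has no background beside it. The helicase had medians of 0.51 and 1.07, Mcm2 differing by 0.44 and 1.10 and Mcm6 by 0.60 and 1.25. Cdc6 (0.36 and 1.19) and Pola1 (0.18 and 0.95) were likewise larger in arrays 5 to 8, and Mcm5 (0.75 and 0.85) and Mcm7 (0.45 and 0.54) were close. Gmnn (0.78 and 0.28) and Tk1 (1.24 and −0.26) were larger in arrays 1 to 4. Across the 49 members the 2 sets of differences correlated with r = 0.23 and, leaving out Tk1, with r = 0.47; members share the same tumors and are not independent. Each set holds 2 tumors per group, and the difference between the sets was not tested.

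**Figure D4:**
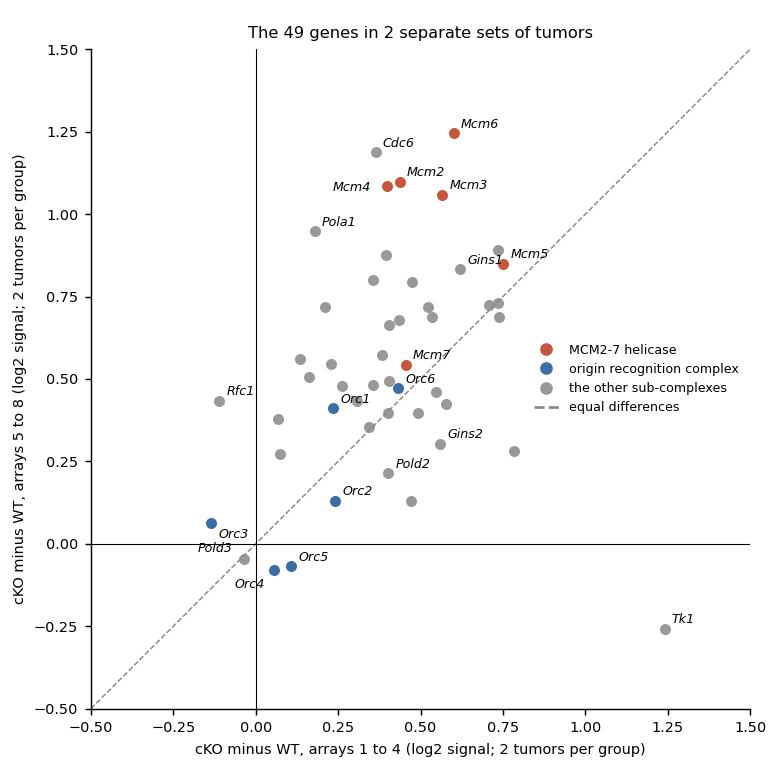
Difference in log2 signal, cKO minus WT, of each member within arrays 1 to 4 (horizontal axis) and within arrays 5 to 8 (vertical axis), with 2 tumors per group in each; red points are helicase subunits, blue points origin recognition subunits, and the diagonal marks equal differences. Of the 49 points, 43 are above 0 on both axes and 34 lie above the diagonal, and Tk1 is below 0 on the vertical axis. The share of all rows above 0 on both axes was not counted.

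The E2F letters were common in these promoters. Of 42 members with a RefSeq window from 250 bases before to 50 after the start, 28 (66.7%) held at least 1 match, against 10.9% of 27025 mouse genes with such windows. Windows were read for 5 of the 6 helicase genes, and 4 of them held a match. Requiring a further T ahead of the 7 letters left 16 members (38.1%) against 2.6% of genes. The letters CCAAT, on either strand, were in 25 members (59.5%) against 41.1% of genes. The members' windows had a median GC content of 63.2% against 53.3% for all genes, and the share of matches expected from GC content was not tested. Of the measured members, 18 of 28 whose groups did not overlap held a match (64.3%), as did 9 of 13 whose groups overlapped (69.2%).

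Other genes of DNA replication, from 7 further lists, were mostly higher as well. Of 53 measured, 48 were higher, where 56.5% of all rows were, and the median difference was 0.30. At an unadjusted p below 0.05, 29 were higher (54.7%), where 5.54% of all rows were. The 4 with the smallest p were Ccne1, the cyclin of S-phase entry, which differed by 0.79 (SE 0.13), Timeless, of the fork protection complex, by 0.75 (SE 0.13), Dtl, which directs Cdt1 to destruction, by 0.69 (SE 0.11), and Topbp1, which helps load Cdc45, by 0.48 (SE 0.087). All 4 had an adjusted p of 0.142. The fork protection list, which includes Timeless, had a median of 0.55, and other polymerase subunits and primases one of 0.16. The 3 genes with the largest p were Mcmbp (0.012), Tk2 (0.0072) and Atr (−0.0048). Samhd1, which breaks down DNA precursors and was picked after its values were seen, was the only one lower at an unadjusted p below 0.05, with a difference of −0.40.

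Genes of other cell cycle steps were set beside the replication genes. Of 29 measured mitotic genes all were higher, with a median difference of 0.70. At an unadjusted p below 0.05, 26 of these mitotic genes were higher (89.7%), against 5.54% of all rows. In 23 (79.3%) the groups did not overlap, against 3.68% of all rows upwards. The mitotic genes with the smallest p were Cdca8 (0.55) and Nuf2 (0.86). Their medians in arrays 1 to 4 and 5 to 8 were 0.71 and 0.68. Of 26 G1/S cyclins, E2F factors and inhibitors, 19 were higher and 7 (26.9%) passed an unadjusted p below 0.05 upwards, against the same 5.54%. Their median was 0.20, with the smallest p for E2f7 (0.44) and Rbl1 (0.37). DNA damage and recombination genes had a median of 0.29 over 22, with the smallest p for Rad54l (0.65) and Brca1 (0.73), and ribosomal protein genes one of 0.061 over 21 with none at that level. The E2F letters were in 12 of 20 promoters of DNA damage and recombination genes (60%), in 9 of 19 of G1/S genes (47.4%), in 20 of 46 of the other replication genes (43.5%), in 4 of 26 of mitotic genes (15.4%) and in 2 of 15 of ribosomal protein genes (13.3%). CCAAT was in 19 of the 26 mitotic promoters. Mitotic genes thus had a larger median difference than the replication genes, and the difference between the lists was not tested.

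**Figure D5:**
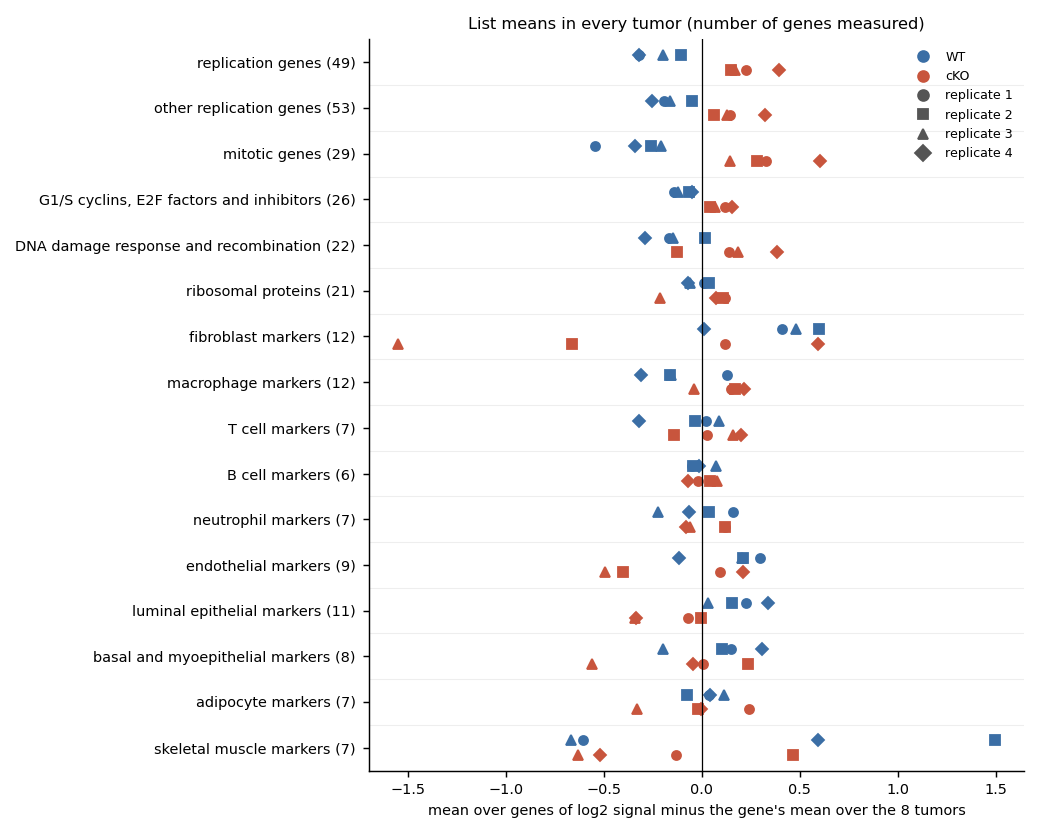
Mean log2 signal of each gene list in each tumor, every gene centred on its own mean over the 8 tumors; each marker is a tumor, blue for WT and red for cKO, its shape the replicate number, and the lists are replication members, other replication genes, comparison lists and cell type markers. The replication members lie between −0.32 and −0.11 in WT and between 0.15 and 0.40 in cKO tumors, and the fibroblast and skeletal muscle lists spread more widely, with fibroblast markers at −1.55 in cKO 3 and 0.59 in cKO 4 and muscle markers at 1.5 in WT 2.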

How the data were processed

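RNA from 8 tumors was hybridised to 1 array each, and the deposited table gives a log2 signal for each row of the array. RMA and limma are the tools named in the submitters' processing notes. RMA adjusts for background, brings the arrays to one distribution and condenses probes into rows, so differences are relative to the array as a whole and those of dim rows may be understated. Their versions and settings were not given in the sources used here, and there was no detection call. The platform annotation gave exactly 1 gene symbol to 23521 of the 41345 rows, of which 23328 were named by gene identifier through the RefSeq table of GRCm38.p6. A gene with several rows is shown by its brightest row on average. The list of members, the other lists and the promoter letters were chosen with earlier results of these data known, so the counts over them are descriptions and no test was run on a list.

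Group means were compared in all 23521 rows by the moderated two-sided test of limma 3.58.1 under R 4.3.3, with lmFit, eBayes and no covariate, followed by Benjamini-Hochberg adjustment. The script was tested on simulated data, where recovery was required only for a difference larger than that of any member. Values in every tumor are given for Mcm2 to Mcm7 and for the member with the smallest and the largest p of each other sub-complex. Of the other replication lists the 4 genes with the smallest p and the 3 with the largest p are named, and of the comparison lists and the 3 marker lists that differed most often the 2 with the smallest p; others named were picked after their values were seen. The 8 tumors are labelled biological replicates, and their number limits the precision. Tumors with the same replicate number deviated from their group means with r between −0.24 and 0.29, above 0.1 in 1 of 4 numbers, so the numbers were not taken to pair tumors. RefSeq promoter windows of GRCm38.p6, which were found for 42 of the 50 members, were searched for letters on both strands. Alternatives were another normalization, a filter on dim rows, all rows, another rule for several rows, another variance prior, array weights, blocks by array or replicate number, and leaving out each tumor.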

Additional observations from a re-analysis of the deposited data

Results flagged for a closer look

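In 9 of 98 groups of 4 tumors, that is 49 members in 2 groups each, 1 tumor stood apart from the other 3 by Dixon's test at the 95% level, which flags about 5% of groups by chance; members share the same tumors, so these are not independent. In the WT group, Orc3 was 7.51 in WT 3 against 7.67 to 7.69, Pold1 was 5.78 in WT 2 against 5.34 to 5.40, and Pold3 was 8.09 in WT 1 against 7.89 to 7.91. Rrm2 was 5.94 in WT 1 against 6.27 to 6.29, Chaf1a was 5.12 in WT 4 against 5.60 to 5.69, and Tk1 was 7.26 in WT 4 against 6.44 to 6.48. In the cKO group, Gins3 was 5.88 in cKO 3 against 6.13 to 6.17, Rpa2 was 6.88 in cKO 4 against 6.59 in each of the others, and Chaf1a was 6.28 in cKO 4 against 5.84 to 5.91.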

How the results depend on the processing

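No member passed the adjusted threshold under any tested alternative. In the limma fits, members higher at an unadjusted p below 0.05 numbered 34 to 40, members whose groups do not overlap 32 to 43 and the median difference was 0.40 to 0.52. Without any 1 tumor these were 34 to 39, 34 to 41 and 0.43 to 0.52. Leaving out a tumor cannot make separate groups overlap, so the count without overlap could not fall below 34 there. The shares of all rows under these alternatives are not given here. The fit with the replicate block gave 35 members at an unadjusted p below 0.05. The fall of Mmp14 kept its direction throughout. It was −1.40 with the array number as a block (adjusted p = 0.0708) and with the replicate block (adjusted p = 0.353), and −1.48 to −1.30 without 1 tumor (adjusted p between 0.0429 and 0.211), past the threshold only without cKO 1 or cKO 3. Within arrays 1 to 4 and 5 to 8, an alternative added after seeing the data, it was −1.13 and −1.66. The 2 rows past the threshold became 8 when all rows were tested, 1 with the array number as a block, 0 with the replicate block and 0 to 3 without 1 tumor. Genes near 0 changed sign: Atr was 0.019 after quantile normalization and 0.0086 with equal array medians, Orc4 was 0.0011 with equal medians, and Mcmbp and Tk2 were −0.0024 and −0.015 with array weights. Without 1 tumor their ranges were −0.072 to 0.095 for Atr, −0.057 to 0.020 for Orc4, −0.020 to 0.053 for Mcmbp, −0.037 to 0.077 for Tk2 and −0.070 to 0.021 for Pold3. Causes were not tested. Of 741 values of 39 named genes under alternatives, 711 stayed within the spread or on their side of the threshold, 18 changed sign and 12 moved. With 4 tumors per group and no detection call, small differences such as those of Orc3 and Orc5 were not detectable.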

Other observations

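The E2F factors and the retinoblastoma family, which regulate many replication genes, were measured on the same arrays. The genes given here were picked after their values were seen. Rb1, the retinoblastoma gene, read 10.71, 10.58, 10.15 and 10.71 in WT 1 to WT 4 and 10.22, 9.83, 9.63 and 9.94 in cKO 1 to cKO 4, and its cKO to WT ratio of mean signals was 0.64. Of the 4 cKO tumors, 3 lay below every WT tumor, while cKO 1 lay above WT 3. E2f1, an activating E2F factor, read 4.77, 5.13, 4.96 and 4.97 in the WT tumors and 5.0, 5.45, 5.63 and 5.38 in the cKO tumors, a ratio of 1.32, with 3 cKO tumors above every WT tumor. E2f8, a repressing factor, read 6.21, 6.27, 6.59 and 6.44 and then 7.04, 6.65, 6.68 and 7.02, a ratio of 1.39 with no overlap. None of the 3 passed the adjusted threshold, and no relation between them and the replication genes was tested.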
